A study of Mus musculus with 265 samples.

Results

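The regions described here are stretches of accessible chromatin that lie between protein-coding genes but still close to one. A region of the deposited matrix was taken when it overlapped no protein-coding gene body and its midpoint lay more than 1 kb and at most 50 kb from the nearest protein-coding start site, with regions in mm10 coordinates and genes from the GENCODE vM21 annotation. The rule used position only, and no measured value. It took 3500 of the 20103 regions, named near-gene intergenic regions in what follows, beside 8786 promoter regions (midpoint within 1 kb of a start site), 5986 genic regions (overlapping a gene body farther from its start) and 1831 intergenic regions beyond 50 kb.

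The study used B3 cells, a mouse pre-B cell line with an Ikaros fusion to part of the estrogen receptor (ERt2-Ikaros), and both time-points carry this construct. 4-hydroxytamoxifen, which moves the fusion protein into the nucleus, was added at 20 mM by the labels, with a second dose at about 12 hours. Single-cells were captured on the Fluidigm C1 before treatment (0-hour) and after 24 hours, in 2 runs for each time-point, so that every comparison rests on 1 cell line with an added Ikaros. The matrix held 48 and 47 cells of the 0-hour runs beside 60 and 72 of the 24-hour runs, and neither the labels nor the paper say whether the 2 runs of a time-point came from separate cultures, so the p-values measure only the spread between these runs. Runs are numbered within each time-point.

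ATAC-seq marks DNA that the Tn5 transposase can reach. Accessible stretches between genes are often enhancers, boundary elements bound by CTCF, or starts of non-coding transcripts, and in B-cell progenitors many enhancers of lineage genes lie within many kilobases of the start site. Ikaros is a zinc finger protein of the lymphoid lineage that binds DNA around a GGGAA core and acts with chromatin remodelling complexes, and in pre-B cells it limits proliferation and promotes differentiation. Each region below is called by the gene with the nearest protein-coding start site, which gives its place and does not say which gene it acts on.

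The sequences of 10 of the regions are shown because the results on single regions turn on them. The first pair are the regions called higher at 24 hours. Tmem196, Elovl7, Il12b and Exoc6 name the regions with the smallest unadjusted p among those higher at 0 hours, and Elp6 and Mrto4 name those that follow the called pair at 24 hours. Cd69 and Igll1 name regions next to genes of surface molecules and of the pre-B cell receptor. Each is the forward strand of mm10, 5′ to 3′, at the coordinates of the matrix read as counting from 1, and capitals mark the letters GGGAA or their reverse complement TTCCC.
Chst11 region, chr10:82955231-82955382: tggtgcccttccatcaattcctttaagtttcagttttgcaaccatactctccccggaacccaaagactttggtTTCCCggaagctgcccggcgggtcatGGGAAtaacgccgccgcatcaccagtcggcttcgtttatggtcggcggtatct
Aldh9a1 region, chr1:167340355-167340504: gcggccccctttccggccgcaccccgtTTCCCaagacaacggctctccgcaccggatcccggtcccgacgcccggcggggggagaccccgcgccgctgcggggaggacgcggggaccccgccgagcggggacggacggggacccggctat
Tmem196 region, chr12:119906946-119907080: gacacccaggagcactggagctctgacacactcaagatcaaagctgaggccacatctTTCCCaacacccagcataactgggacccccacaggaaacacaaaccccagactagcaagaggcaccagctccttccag
Elovl7 region, chr13:108212502-108212622: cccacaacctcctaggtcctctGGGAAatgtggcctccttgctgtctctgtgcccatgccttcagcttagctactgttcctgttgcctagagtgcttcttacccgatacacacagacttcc
Il12b region, chr11:44387149-44387305: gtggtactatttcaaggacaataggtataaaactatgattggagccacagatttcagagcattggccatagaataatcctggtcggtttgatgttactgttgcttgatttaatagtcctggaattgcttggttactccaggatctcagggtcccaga
Exoc6 region, chr19:37514904-37515053: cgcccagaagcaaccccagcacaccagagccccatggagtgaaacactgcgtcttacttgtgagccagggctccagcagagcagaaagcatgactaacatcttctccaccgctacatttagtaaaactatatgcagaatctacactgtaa
Elp6 region, chr9:110281243-110281387: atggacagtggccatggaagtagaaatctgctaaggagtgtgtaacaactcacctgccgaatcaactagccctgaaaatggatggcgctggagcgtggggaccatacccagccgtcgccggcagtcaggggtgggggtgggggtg
Mrto4 region, chr4:139338169-139338368: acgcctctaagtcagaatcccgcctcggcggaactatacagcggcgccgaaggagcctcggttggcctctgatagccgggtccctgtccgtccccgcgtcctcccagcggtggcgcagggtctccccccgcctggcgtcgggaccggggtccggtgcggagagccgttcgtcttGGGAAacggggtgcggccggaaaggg
Cd69 region, chr6:129284493-129284623: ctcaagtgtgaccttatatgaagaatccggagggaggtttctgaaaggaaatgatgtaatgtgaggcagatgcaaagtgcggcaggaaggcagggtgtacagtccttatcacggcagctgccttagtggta
Igll1 region, chr16:16865355-16865480: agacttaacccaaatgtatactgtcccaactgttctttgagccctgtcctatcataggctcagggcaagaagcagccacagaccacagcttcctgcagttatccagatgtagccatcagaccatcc

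These 10 sequences ran from 121 to 200 bases, and 5 of them held the GGGAA core at least once. The Chst11 region held it 2 times, once on each strand. In the Il12b, Exoc6, Elp6, Cd69 and Igll1 regions these letters were not in the window.

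Over all 3500 regions the width ran from 2 to 282 bp with a median of 136 bp. They lay on 21 chromosomes, with 36 on X and 10 on Y, at a median of 14285 bp from the nearest start site. Most of them, 2706 (77.3%), lay upstream of that start site and 794 lay beyond the far end of the gene, since the gene body itself is left out. By distance, 753 lay over 1 to 5 kb from the start site, 594 over 5 to 10 kb, 844 over 10 to 20 kb and 1309 over 20 to 50 kb. Their median GC content was 53.4%, between the 50.8% of regions beyond 50 kb and the 54.3% of genic regions, and below the 65.7% of promoters.

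The regions were spread over 2380 nearest genes. Of these genes, 1694 had a single region, 437 had 2 and 249 had 3 or more, with a highest number of 10 next to Ptma, which encodes the chromatin-associated protein prothymosin alpha. Within 5 kb of another region of the same kind lay 1154 of them (33.0%), and 588 (16.8%) had a neighbour within 1 kb, so that neighbouring regions are not independent of each other. The nearest gene also had a promoter region in the matrix for 2016 (57.6%). In GENCODE vM21, 547 overlapped a long non-coding RNA gene, 282 lay within 1 kb of a long non-coding RNA start, 50 overlapped a pseudogene and 1 overlapped an immunoglobulin segment, Ighv1-85.

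The 4 runs summed to 164357, 92639, 122586 and 142611 counts over all regions, with run medians between 1676 and 2898 counts per cell. No value in the matrix was above 2. A value of 2 made up 54.1% of the values above 0 in the near-gene intergenic regions and 52.8% in promoters. Markers of the B lineage had a region at the start site for 6 of 8 genes (Ebf1, Cd79a, Cd79b, Pax5, Igll1 and Vpreb1), which summed to 414 to 542 raw CPM (counts per run scaled to a common total, without further normalization). Cd5 was the 1 T-cell marker of 14 with such a region and Lyz2 the 1 myeloid marker of 15, detected in 5 and 6 cells, Tfrc (44 cells), which dividing cells also use, was the 1 erythroid marker of 13, and none of 16 non-haematopoietic markers had one.

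Single regions of the near-gene intergenic kind were sparse. Each was detected, with a value above 0, in 5 to 196 of the 227 cells, with a mean of 12.6 cells and a median of 10, and 356 (10.2%) were detected in at least 10% of cells. In an average cell of the 0-hour runs, 8.95% and 5.54% of the 3500 regions had signal, against 4.85% and 3.84% in the 24-hour runs. Promoters were detected in a mean of 22 cells. In every run the near-gene intergenic regions were detected in a smaller share of cells than promoters, with differences of -4.02, -1.74, -4.09 and -5.82 percentage points (mean -3.92, two-sided exact sign-flip permutation test over 4 runs, p = 0.125, the smallest p that 4 runs allow). They also lay below genic regions in each run, with differences of -1.04, -0.562, -0.225 and -0.0516 percentage points that were smaller at 24 hours (mean -0.47, the same exact test, p = 0.125).

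Against intergenic regions beyond 50 kb no such order was seen. The difference in mean detection was -0.247 and -0.352 percentage points before induction and 0.250 and 0.442 after it, so its sign differed between the time-points (mean 0.0231, exact sign-flip permutation test, p = 0.875). Among the 3500 regions, detection varied little with distance, with a mean of 12.4, 13.5, 12.3 and 12.4 cells in the 4 distance groups from the nearest to the farthest. It varied more with base composition, from a mean of 10.7 cells in the lowest of 4 GC groups of like size to 15.3 cells in the highest. The 282 regions next to a long non-coding RNA start were detected in a mean of 16.7 cells, against 12.2 for the other 3218.

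The share of all signal that fell in near-gene intergenic regions was lower at 24 hours than at 0 hours. It was 14.2% and 14.9% before induction and 12.7% and 10.6% after it, with no overlap and with 24-hour run 2 lowest. The mean difference was -2.9 percentage points (exact permutation test over runs, two-sided, n = 2 and 2, p = 0.333, the smallest this design can give), and the difference was -1.82 points without 24-hour run 2. Over the same runs the promoter share was 51.0%, 48.5%, 58.3% and 66.4%. The 4 shares of a run sum to 100%, so a higher share in one class lowers the others.

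Ratios between classes within a run gave the place of the near-gene intergenic regions between promoters and the regions farthest from genes. The log2 ratio of their signal to promoter signal was -1.85 and -1.70 at 0 hours and -2.19 and -2.65 at 24 hours, a mean change of -0.65. The ratio to genic signal was -0.94 and -0.91 at 0 hours and -0.83 and -0.78 at 24 hours, a change of 0.12. The ratio to regions beyond 50 kb was 0.89 and 0.81 against 1.02 and 1.11, a change of 0.22. In all 3 ratios the runs of the time-points did not overlap (exact permutation test for each, p = 0.333, adjusted p = 0.333 over the 3). Relative to promoters the near-gene intergenic signal was thus lower at 24 hours, while relative to genic and far intergenic regions it was higher.

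The lower ratio to promoters was also seen within groups of GC content. With the limits of the 4 GC groups of the near-gene intergenic regions (49.0%, 53.4% and 58.3%), the change in the log2 ratio to promoters from 0 to 24 hours was -0.68, -0.55, -0.53 and -0.34 from the lowest to the highest GC group, each with runs that did not overlap. Against regions beyond 50 kb the GC groups were not tested. In the lowest GC group the log2 change in share of signal was -0.60 for near-gene intergenic regions and -0.58 for regions beyond 50 kb, so that a higher ratio was not seen there, and in the other 3 groups it was -0.50 and -0.62, -0.37 and -0.65, and 0.04 and -0.15. The highest group is open-ended, and in it the promoters had a median GC content of 68.2% against 62.4%. For the 1321 genes that had both a near-gene intergenic region and a promoter region, the log2 ratio was -0.15 and 0.03 at 0 hours and -0.52 and -0.98 at 24 hours. In 922 of these genes (69.8%) the mean log2 change of the intergenic regions lay below that of the promoters.

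The same direction was seen cell by cell. The median share of a cell's counts in near-gene intergenic regions was 14.2%, 14.9%, 12.9% and 10.4% in the 4 runs, the 0-hour runs first. Single cells overlapped across the time-points, from 8.06% to 18.9% at 0 hours and from 5.85% to 17.3% at 24 hours. Depth differed between runs. Over the summed counts of cells with 1000 to 3000 counts (26, 36, 35 and 47 cells), the shares were 13.8%, 15.0%, 12.6% and 10.3%. This range was chosen after the values were seen. After each cell was thinned to 837 counts, which left out 1 cell of 0-hour run 2, 13 of 24-hour run 1 and 9 of 24-hour run 2, a cell had a median of 102 and 100 such regions at 0 hours and 94 and 68 at 24 hours (exact permutation test, p = 0.333). Before thinning the medians were 255, 167, 159 and 96.5 regions. The 0-hour runs lay close together after thinning and 24-hour run 2 lay well below 24-hour run 1.

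**Figure D1:**
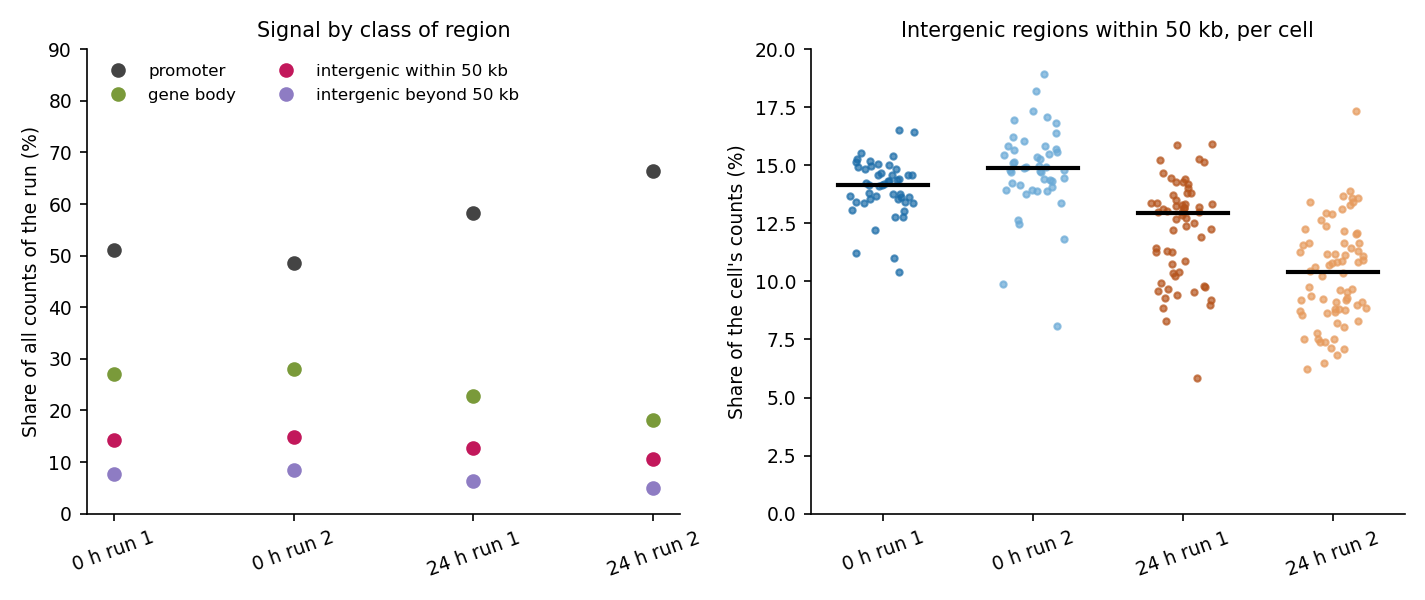
Left, the share of all counts of each C1 run (y axis, %) in each class of region, 1 point per run. Right, the share of each cell's counts in intergenic regions within 50 kb (y axis, %), 1 point per cell with the run median as a line. The share of the near-gene intergenic regions goes from 14.2% and 14.9% in the 0-hour runs to 12.7% and 10.6% in the 24-hour runs, and single cells of the time-points overlap.

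For single regions, the summed counts of each run were tested over all 20103 regions with edgeR's quasi-likelihood test. The log2 change from 0 to 24 hours had a median of -0.39 over the 3500 regions, with quartiles of -1.35 and 0.54, beside a median of -0.06 over all regions, 0.33 over promoters, -0.58 over genic regions and -0.68 over regions beyond 50 kb. With the number of cells as the scale in place of counts in regions, the median over all regions was -0.51, that of promoters turned to -0.14 and that of the near-gene intergenic regions was -0.84. Relative to all regions, the near-gene intergenic median lay at -0.33 under both scales. The median of the 3500 regions was -0.77 without 24-hour run 1 and -0.25 without 0-hour run 1, beside -0.26 and 0.13 over all regions.

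At an adjusted p of 0.05 the test called 0 of the 3500 regions higher at 0 hours, where it called 0.0149% of all regions, and 2 higher at 24 hours, where it called 0.0398% of all regions. At an unadjusted p of 0.05 it counted 346 (9.89%) higher at 0 hours, where all regions gave 7%, and 113 (3.23%) higher at 24 hours, where all regions gave 5.11%. DESeq2 called 0 in either direction, with 147 (4.20%) and 43 (1.23%) at an unadjusted p of 0.05, where all regions gave 3.15% and 2.25%. A plainer count is that of regions whose runs separate, where each run of one time-point lies above each run of the other in TMM-normalized CPM. By this count 1118 regions (31.9%) lay higher at 0 hours, where all regions gave 25.7%, and 484 (13.8%) lay higher at 24 hours, where all regions gave 19.3%. Promoters stood the other way round, with 13.1% and 28.0%, and regions beyond 50 kb gave 39.6% and 11.4%.

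Distance from the start site made little difference within these regions. From the nearest to the farthest distance group, the median log2 change was -0.38, -0.30, -0.33 and -0.46, and the share of regions separated and higher at 0 hours was 29.0%, 29.6%, 32.5% and 34.4%. Separated and higher at 24 hours were 12.7%, 14.5%, 14.9% and 13.4%. Upstream regions had a median of -0.41 and downstream regions one of -0.32. None of these groups reached the promoter median of 0.33, even just beyond 1 kb.

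Groups by base composition and by non-coding starts lay farther apart. From the lowest to the highest GC group the median log2 change was -0.59, -0.51, -0.43 and -0.07. In the highest GC group 22.8% of regions separated with more signal at 0 hours and 20.4% with more at 24 hours, near the balance of all regions, against 36.5% and 10.2% in the lowest. The 282 regions within 1 kb of a long non-coding RNA start had a median of -0.06 and a median GC content of 57.6%, against -0.43 and 53.1% for the others, so base composition moved with this difference and its part was not tested. Regions with a promoter region of the nearest gene in the matrix (median -0.43) and those without one (-0.35) lay close together.

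**Figure D2:**
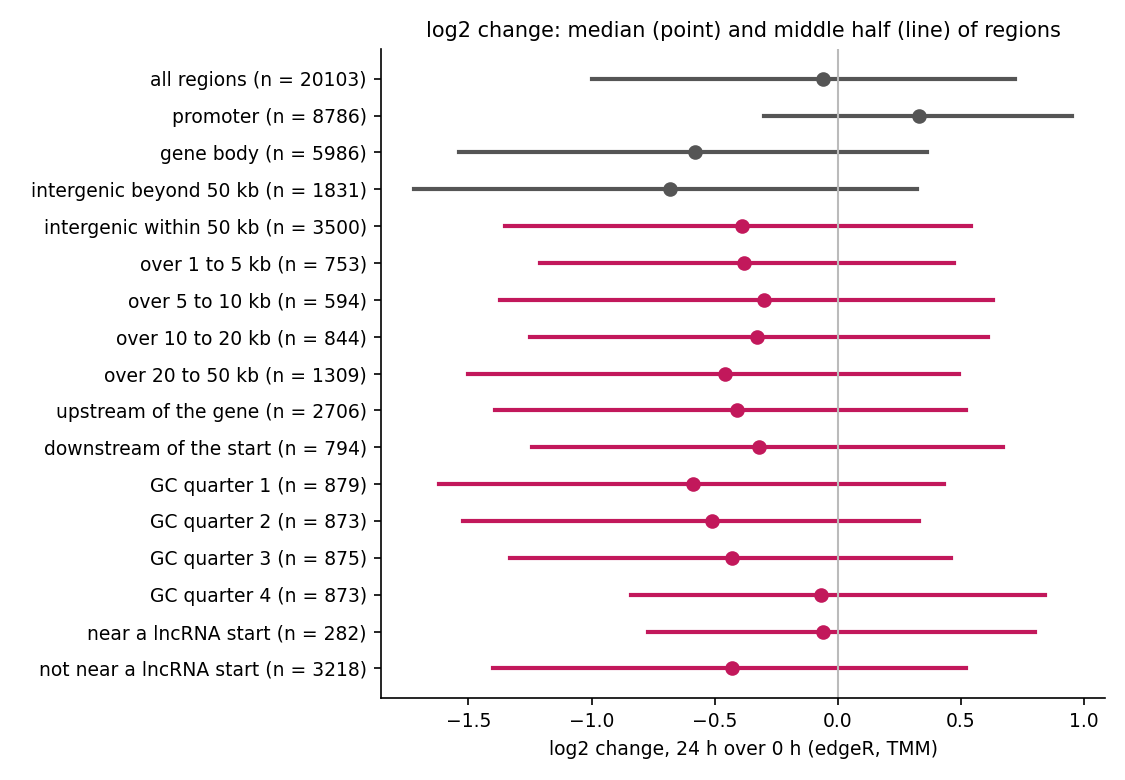
The log2 change from 0 to 24 hours (x axis, edgeR with TMM) for classes and subgroups of regions (y axis), with the median as a point and the range between the quartiles as a line. The medians of the near-gene intergenic distance groups stay between -0.46 and -0.30, and those of the GC groups go from -0.59 to -0.07.

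**Figure D3:**
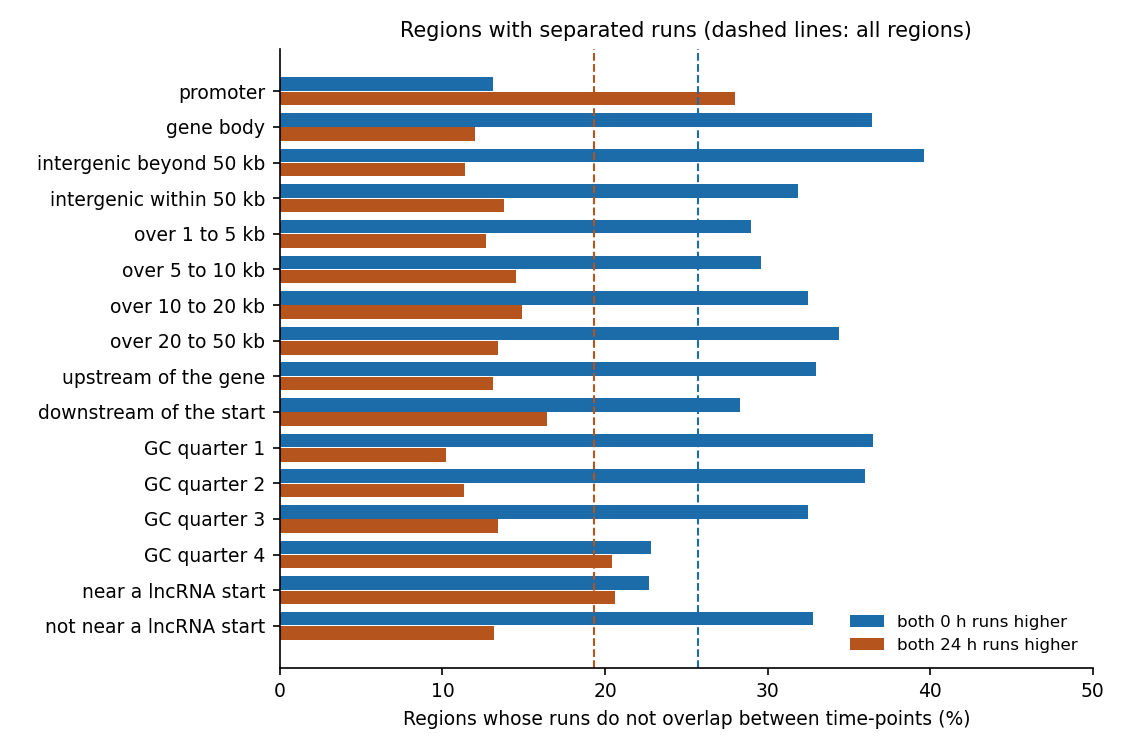
The share of regions (x axis, %) in each class or subgroup (y axis) whose runs do not overlap between time-points, by the time-point with more signal, with dashed lines at the shares of all regions. The near-gene intergenic regions stand at 31.9% for 0 hours and 13.8% for 24 hours, beside 25.7% and 19.3% over all regions.

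The first of the called regions lies at chr10:82955231-82955382, 30.2 kb upstream of Chst11, a sulfotransferase of chondroitin sulfate synthesis. Signal was found in 14.6% and 2.13% of the 0-hour cells and in 40.0% and 52.8% of those at 24 hours, by run. The exact binomial 95% intervals, which cover counting error only, reached up to 27.8% and 11.3% at 0 hours and down to 27.6% and 40.7% at 24 hours. The sums of counts were 13, 2, 43 and 67, and the log2 change was 2.92 with a standard error (SE) of 0.55 (edgeR's quasi-likelihood test, Benjamini-Hochberg adjusted p = 0.00932). All 24-hour values lay above all 0-hour values. This stretch has 4 copies in mm10 and matches the ribosomal RNA locus of chromosome 17 at 95.1% identity, so its counts cannot be assigned to 1 place.

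The second, at chr1:167340355-167340504, lies 9.6 kb upstream of Aldh9a1, which encodes an aldehyde dehydrogenase, and overlaps the annotated miRNA gene Gm25911. Its signal was found in 12.5% and 6.38% of 0-hour cells against 25% and 59.7% after induction, from sums of 9, 5, 26 and 79 counts. Run 2 at 24 hours was far above the other 3 runs. The log2 change was 2.86 with a standard error of 0.56 (edgeR, adjusted p = 0.0155). Its GC content was 78.7%, and it has 2 copies in mm10. Without 0-hour run 2 neither region was called (edgeR, adjusted p = 0.398 for Chst11 and 0.145 for Aldh9a1), and the Aldh9a1 region was also lost without 0-hour run 1 (0.0944) and without 24-hour run 2 (0.206). Neither was called with RLE factors, cell numbers as offset, detected or not detected values, thinned cells or DESeq2, where the adjusted p ran from 0.0773 to 0.697 while the log2 changes stayed between 2.37 and 3.44.

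Among regions detected in at least 10% of cells with separated runs, the 6 with the smallest unadjusted p on the 0-hour side are given as a description, since none passed the adjusted threshold over all regions. The region at chr12:119906946-119907080, 38.8 kb upstream of Tmem196, which encodes a transmembrane protein, was detected in 22.9% and 25.5% of 0-hour cells, in 0 of the 60 cells of 24-hour run 1, which allows a share of up to 5%, and in 1.39% of the cells of 24-hour run 2. Its log2 change was -4.12 with a standard error of 0.95 (edgeR adjusted p = 0.0662). That change was -3.24 without 24-hour run 1 and -7.24 without 24-hour run 2, where the 24-hour run left holds no signal. The region at chr13:108212502-108212622 lies 1.8 kb upstream of the fatty acid elongase gene Elovl7. It was detected in 20.8%, 25.5%, 6.67% and 0% of the cells of the 4 runs (log2 change -3.24). That change was -2.20 without 24-hour run 2 and -7.34 without 24-hour run 1, where the 24-hour run left holds no signal. Both regions had signal in over 20% of cells before induction and in few or no cells after it.

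The region at chr11:44387149-44387305, 12.8 kb upstream of Il12b, the gene of the p40 chain of interleukin-12, was detected more often than any other of the 6. Signal was found in 47.9% and 63.8% of 0-hour cells against 11.7% and 13.9% at 24 hours (log2 change -1.79, SE 0.48, edgeR adjusted p = 0.130). It overlaps the processed pseudogene Gm12155 and matches the mitochondrial genome at 87.4% identity. The region at chr19:37514904-37515053, 35.4 kb upstream of the exocyst subunit gene Exoc6, was detected in 35.4%, 25.5%, 10.0% and 2.78% of cells (log2 change -2.24). Regions near C77080 and Syde2 had log2 changes of -3.55 and -2.70. The C77080 change was -2.60 without 24-hour run 2 and -6.78 without 24-hour run 1, where the 24-hour run left holds no signal. Tested among regions found in 10% of cells or more, Tmem196, Il12b and Elovl7 passed the threshold (edgeR adjusted p = 0.00903, 0.0258 and 0.0312). That filter asks for 23 cells. The Tmem196 region had 24, with 11 and 12 in the 0-hour runs, Elovl7 had 26, with 10 and 12, and Il12b had 70, with 23 and 30. They met the filter mostly through the time-point where they are high, so these p-values are no added support. Il12b also passed with cell numbers as offset (edgeR adjusted p = 0.0136) and Tmem196 scaled to run totals alone (0.0221). Without 24-hour run 1 the Tmem196, Elovl7, Exoc6 and C77080 regions passed (edgeR adjusted p from 0.00163 to 0.0241), and Tmem196 also without 24-hour run 2 (0.0129). With either 0-hour run left out none of the 6 passed, and the Il12b change was -1.14 when run 2 was. The rule takes only regions whose 24-hour runs lie below both 0-hour runs. Of the 6, 5 have 1 copy in mm10 and no mitochondrial match.

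On the 24-hour side the same rule took the called pair and 4 further regions, again with adjusted p above 0.05. The region at chr9:110281243-110281387, 23.9 kb upstream of the Elongator subunit gene Elp6, overlaps the miRNA gene Mir6236 and was detected in 6.25%, 2.13%, 8.33% and 33.3% of cells (log2 change 2.82, SE 0.69, edgeR adjusted p = 0.0898). Without 24-hour run 2 its log2 change was 1.40 (edgeR adjusted p = 0.659), while scaled to run totals alone it passed the threshold (0.0429). The region at chr4:139338169-139338368, 14.3 kb downstream of the start of the ribosome assembly gene Mrto4, overlaps the miRNA genes Gm24245 and Gm25732 and was detected in 8.33%, 8.51%, 16.7% and 34.7% (log2 change 2.37). In both, 24-hour run 2 was the highest run, and without it the Mrto4 region had a log2 change of 1.56. Regions near P4ha2, a collagen prolyl hydroxylase gene, and Tcp10c had log2 changes of 2.28 and 1.89, with 30 and 522 copies in mm10. Without 24-hour run 1 all 4 further regions passed the threshold (edgeR adjusted p from 7.98e-05 to 0.0222). Of the 6 regions on the 24-hour side 4 thus have more than 1 copy, against 0 of 6 on the 0-hour side. The Elp6 and Mrto4 regions have 1 copy in mm10, and ribosomal RNA sequence outside the chromosome 17 locus was not searched for matches.

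**Figure D4:**
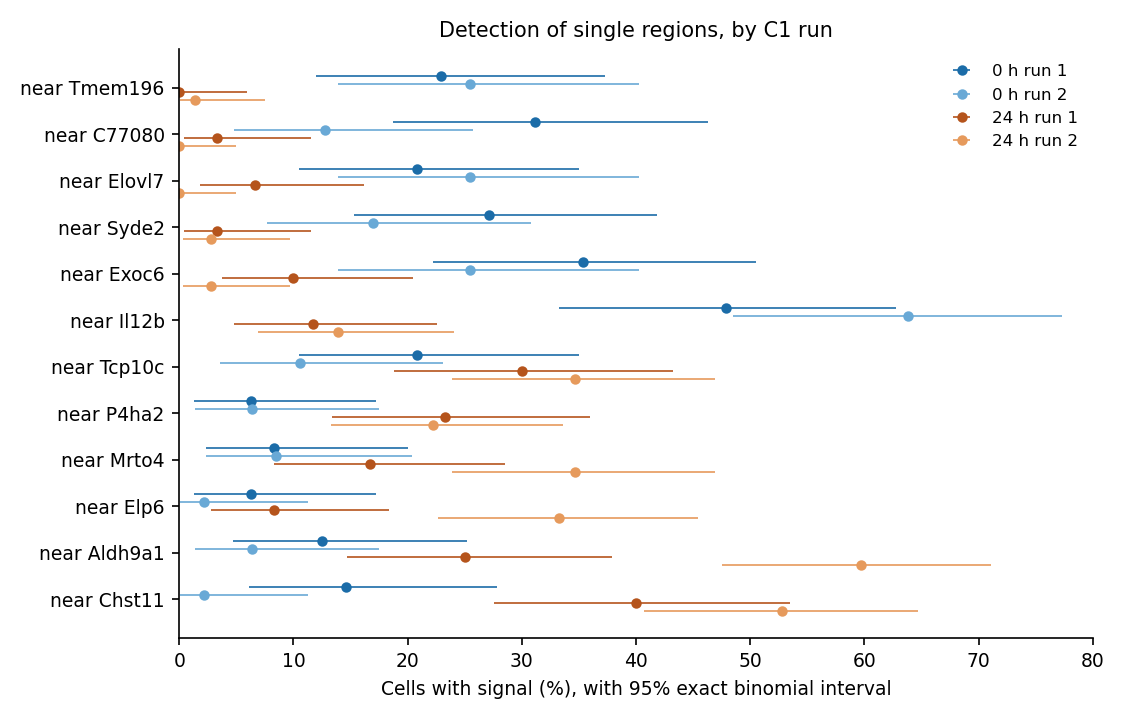
The share of cells with signal (x axis, %) for the regions named by their nearest gene (y axis), 1 point per C1 run with its 95% exact binomial interval. The Tmem196 region goes from 22.9% and 25.5% of cells at 0 hours to 0% and 1.39% at 24 hours, and the Chst11 region from 14.6% and 2.13% to 40.0% and 52.8%.

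Among the 8 regions detected in the most cells, 3 matched the mitochondrial genome. The last place was shared by the Chst11 region, taken here, and the Il12b region described above, which also matches, with 70 cells each. The most detected of all lay 35.5 kb upstream of Grp, the gene of gastrin-releasing peptide, with signal in 196 of 227 cells, and in 95.8%, 97.9%, 86.7% and 72.2% of the cells of the 4 runs. It overlaps a processed pseudogene and matches the mitochondrial genome at 93.9% identity. A region 7.5 kb upstream of Them5, a thioesterase gene, was detected in 77.1%, 80.9%, 33.3% and 23.6% of the cells of the runs, and matches at 94.8%. A region near the mitochondrial carrier gene Slc25a54 was detected in 50.0%, 51.1%, 30.0% and 18.1% of cells, and matches at 83.2%. In these 3 of the 8 most detected regions the share of cells with signal was lower in both 24-hour runs, while the normalized CPM of the Grp region overlapped between the time-points.

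The other 5 of the 8 had no mitochondrial match. A region of chromosome Y near Gm21860 with 2 copies was detected in 64.6%, 55.3%, 61.7% and 63.9% of cells, and one near Gm21060 in 56.2%, 27.7%, 50.0% and 56.9%. Regions near Igf2bp3, an RNA-binding protein gene, and near the zinc finger gene Zfp869 were each detected in 76 cells, the first in 43.8%, 23.4%, 33.3% and 33.3% and the second in 45.8%, 40.4%, 25% and 27.8% of the runs. The last of the 8, at the tie with the Il12b region, was the called Chst11 region. Apart from Chst11, these regions kept signal in over 1 in 5 cells of every run.

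Over the whole set, 7 of the 3500 regions matched the mitochondrial genome and 6 of them separated with more signal at 0 hours, where all regions gave 25.7%. More than 1 copy in mm10 was found for 162, with a median log2 change of 0.00, and 1 copy for 3319, with a median of -0.40. Without copies and mitochondrial matches the share of signal was 13.2% and 13.8% at 0 hours and 11.7% and 9.54% at 24 hours, so the lower share at 24 hours was as large without them.

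The genes with the most near-gene intergenic regions gave a view of whole loci. The 10 regions within 50 kb of Ptma summed to 475 and 399 raw CPM at 0 hours and to 465 and 435 at 24 hours, and the values of the time-points overlapped. The 8 regions upstream of Plcg2, which encodes the phospholipase C downstream of the B-cell receptor, summed to 274 and 205 raw CPM at 0 hours and to 204 and 49.1 at 24 hours. The last of these rests on 7 counts. None of the 8 Plcg2 regions was detected in more than 15 of the 227 cells.

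The 7 regions around Irf2bp2, a corepressor gene, summed to 280, 464, 245 and 98.2 raw CPM, and the 7 upstream of Lbr, the lamin B receptor gene, to 347, 540, 245 and 182. Both loci had less signal in each 24-hour run than in each 0-hour run. The 8 regions upstream of Nanos3 summed to 456, 410, 367 and 351, and the 7 near Gm5148 to 432, 270, 131 and 224, in the same order. The 7 regions near the olfactory receptor gene Olfr1423 went the other way, with 304 and 259 raw CPM at 0 hours and 416 and 344 at 24 hours. These sums are levels given as a description, and no test was run on them.

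Next to genes of the pre-B cell receptor and its signalling lay 26 regions, at 14 of the 24 genes listed. Of these 26, 0 were called, 11 (42.3%) separated with more signal at 0 hours and 0 with more at 24 hours, where all regions gave 25.7% and 19.3%. The median log2 change was -0.81, beside -0.06 over all regions and -0.39 over all near-gene intergenic regions. Without 24-hour run 1 it was -1.60, where all regions gave -0.26 and all near-gene intergenic regions -0.77. It was -0.58 without 24-hour run 2, -0.60 without 0-hour run 1, -0.93 without 0-hour run 2 and -0.65 with thinned cells. The signal of the 26 regions summed to 1222.9, 1090.3, 873 and 449 raw CPM. The Plcg2 regions make up 8 of the 26. The region 1.4 kb upstream of Igll1, the lambda5 surrogate light chain, was detected in 25% and 10.6% of 0-hour cells against 1.67% and 6.94% at 24 hours (log2 change -1.41, SE 0.78, edgeR adjusted p = 0.473). This change was -0.19 with thinned cells, -0.82 when 24-hour run 1 was left out, -0.90 when 0-hour run 1 was and -2.61 when 24-hour run 2 was.

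Further regions of this group kept signal in both time-points. A region 10.5 kb upstream of Syk, the kinase that couples the receptor to downstream signalling, was detected in 18.8%, 12.8%, 8.33% and 9.72% of cells (log2 change -0.46, with -0.13 without 24-hour run 1 and -0.87 without 24-hour run 2). A region 16.0 kb upstream of Ptprc, which encodes CD45, was detected in 22.9%, 19.1%, 18.3% and 5.56%. In both regions the 24-hour shares lay below the 0-hour shares, while the Ptprc region overlapped between the time-points in normalized CPM.

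Next to genes of IL-7 receptor and cytokine signalling, which drives pre-B cell growth, lay 11 regions, at 7 of 16 genes. Of these, 0 were called, 7 (63.6%) separated with more signal at 0 hours and 1 (9.09%) with more at 24 hours, where all regions gave 25.7% and 19.3%. The median log2 change was -1.42, and -0.82 without 0-hour run 2, and the regions summed to 402 and 626 raw CPM at 0 hours and 204 and 210 at 24 hours. Jak1, the kinase bound to the receptor, had 4 of the 11, and the region 33.2 kb upstream of it was detected in 12.5%, 12.8%, 5% and 2.78% of cells (log2 change -1.42, and -0.82 without 0-hour run 2). A region 3.8 kb upstream of Stat5a, the transcription factor that carries the IL-7 signal, was detected in 12.5% and 6.38% of 0-hour cells against 1.67% and 1.39% at 24 hours (log2 change -2.82, SE 1.21, edgeR adjusted p = 0.319). The 1 region higher at 24 hours lay near the signalling inhibitor Socs3, and its sign was turned by thinning.

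The 43 regions next to B-lineage transcription factors, at 22 of 40 genes, were near balance between the time-points. Of them 0 were called, 11 (25.6%) separated with more signal at 0 hours and 10 (23.3%) with more at 24 hours, where all regions gave 25.7% and 19.3%. The median log2 change was -0.08, with -0.45 when 24-hour run 2 was left out and 0.27 when 0-hour run 1 was. The difference from the pre-B receptor group was not tested. Next to Ets1, a factor of the ETS family, 5 regions summed to 134 and 140 raw CPM at 0 hours and 481 and 295 at 24 hours. The most detected of them, 23.1 kb upstream, was found in 14.6%, 8.51%, 23.3% and 16.7% of cells (log2 change 1.24, SE 0.57, edgeR adjusted p = 0.358). The 3 regions next to Pax5, which maintains B-lineage identity, summed to 24.3, 54.0, 131 and 63.1 raw CPM, from 4, 5, 16 and 9 counts. At both loci each 24-hour run lay above each 0-hour run.

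Other factors of this group stood otherwise. The 3 regions next to Ikzf1, the endogenous Ikaros gene, summed to 85.2 and 54.0 raw CPM at 0 hours and 16.3 and 21.0 at 24 hours, from 14, 5, 2 and 3 counts. The 6 regions next to the early response gene Egr1 summed to 347, 302, 326 and 287, and the 4 next to Sox4 to 134, 237, 179 and 182, and the time-points overlapped at both. A region just beyond 1 kb upstream of Foxo3, the most detected of the 43 with 60 cells, was found in 33.3%, 14.9%, 10.0% and 43.1% of cells, with the 24-hour runs farthest apart. A region upstream of Myb was found in 10.4%, 17%, 10.0% and 12.5%.

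Next to genes of proliferation and survival lay 18 regions at 10 of 26 genes, of which 0 were called, 8 (44.4%) separated with more signal at 0 hours and 3 (16.7%) with more at 24 hours, where all regions gave 25.7% and 19.3%. The median log2 change was -0.29. It was -0.71 without 24-hour run 1, where all near-gene intergenic regions gave -0.77, and -0.71 with thinned cells, where those gave -0.34. Pmaip1, which encodes the pro-apoptotic protein Noxa, had 6 of the 18. These 6 summed to 341 and 270 raw CPM at 0 hours and 171 and 77.1 at 24 hours. A region 17.3 kb upstream of the cell cycle factor gene E2f3 was detected in 14.6%, 12.8%, 5% and 1.39% of cells (log2 change -1.51, with -2.34 without 24-hour run 1 and -0.94 without 24-hour run 2). A region near Cdkn1b, which encodes the inhibitor p27, was detected in 10.4%, 4.26%, 5% and 16.7%. A region 1.9 kb upstream of Myc was detected in 6.25%, 6.38%, 5% and 5.56%, a difference not detectable at this depth.

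Of 19 regions next to adhesion, homing and surface molecules, at 7 of 26 genes, 0 were called, and 3 (15.8%) separated in each direction, where all regions gave 25.7% and 19.3%. The median log2 change was -0.39, and its sign turned with the run left out, with -1.41 for 24-hour run 1, 0.30 for 24-hour run 2, -0.07 for 0-hour run 1 and -0.20 for 0-hour run 2. The 5 regions of Cd69, an early activation antigen that retains lymphocytes in tissue, summed to 280, 313, 277 and 49.1 raw CPM, with 24-hour run 2 far below the other runs. The most detected of them, 9.1 kb upstream, was found in 29.2%, 25.5% and 15.0% of cells and in 0 of the 72 cells of 24-hour run 2, which allows a share of up to 4.17% (log2 change -1.81, SE 0.70, edgeR adjusted p = 0.277). Its log2 change was -0.76 without 24-hour run 2, and without 24-hour run 1, where the 24-hour run left holds no signal, it passed the threshold (edgeR adjusted p = 0.000592). A region near the sphingosine phosphate receptor gene S1pr1 was detected in 4.17%, 6.38%, 10.0% and 11.1% of cells (log2 change 1.30). That change was 0.49 when 0-hour run 1 was left out and 2.50 when 0-hour run 2 was. The 4 regions of S1pr1 summed to 128, 216, 147 and 112 raw CPM, and the time-points overlapped. A region near the chemokine receptor gene Cxcr4 was detected in 12.5%, 6.38%, 8.33% and 1.39%.

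Of 14 genes that the study names, in its network, as targets of Ikaros or otherwise, 8 had regions, 16 in all. Of these 16 regions, 0 were called. With more signal at 0 hours 7 (43.8%) separated, and 3 (18.8%) with more at 24 hours, where all regions gave 25.7% and 19.3%. The median log2 change was -0.97, with -0.50 without 24-hour run 1, -0.60 without 0-hour run 1 and -0.17 with thinned cells. This list was drawn from genes that the study names after analysing these samples, and so is not independent evidence of its direction. Hes1, a target of Notch signalling, had 4 regions that summed to 183, 75.6, 155 and 91.2 raw CPM. Genes of V(D)J recombination had no near-gene intergenic region. Among markers of other cell types, T-cell markers had 1 region (Cd28, log2 change -2.03, with -3.58 without 24-hour run 1 and -1.25 without 24-hour run 2), myeloid markers had 2 and the erythroid and non-haematopoietic lists had 0.

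Short motifs were searched on both strands in the 150 bases around each region's midpoint. Each match is a description of letters, and some motifs share letters, since TGGGAA contains GGGAA. The Ikaros core GGGAA was in 39.9% of the near-gene intergenic windows, 39.2% of all windows, 38% of promoters and 38.6% of regions beyond 50 kb, so its share hardly varied by class. The longer TGGGAA was in 11.8% and in 11% of all windows. The ETS motif of the PU.1 kind, GAGGAAG, was in 15.8% (12.7% of all), the Runx motif TGTGGTT in 9.20% (6.70% of all) and the AP-1 motif TGANTCA in 5.46% (3.85% of all). For these 3 the share in promoters was lower, at 7.94%, 1.92% and 1.66%. In genic regions it was 17.2%, 10.0% and 5.18%, and beyond 50 kb 15.0%, 13.9% and 6.94%.

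Motifs usual at promoters were rarer. The SP1 and KLF motif GGGCGG was in 13.5% of near-gene intergenic windows, 32.3% of all windows and 55.2% of promoters. The NFY motif CCAAT was in 16.6% (22.4% of all), the ETS core CCGGAA in 7.20% (14.6% of all), the Myc E-box CACGTG in 3.91% (5.10% of all) and the CRE motif TGACGTCA in 0.886% (1.84% of all). The median window held 3 CG pairs, against 13 in promoters and 2 beyond 50 kb, and a CG was in 90.2% of windows and 93.4% of all windows. The part of the CTCF motif with the letters CNAGNGGGC was in 9.20% of near-gene intergenic windows, 8.47% of promoters, 6.58% of genic regions and 5.08% of regions beyond 50 kb, with 7.73% of all windows, and it was the highest of the 4 classes.

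Further motifs searched were those of E proteins, EBF, Foxo, NF-kappaB, MEF2 and interferon response. The E protein E-box CAGGTG was in 11.7% (9.39% of all windows), the EBF motif CCCNNGGG in 14.4% (14.3%), the Foxo motif GTAAACA in 1.63% (1.35%), the NF-kappaB motif GGGANNNCC in 10.2% (11.4%), the MEF2 motif TAAAAATA in 2.17% (1.27%) and the interferon response motif GAAANNGAA in 4.77% (3.96%).

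**Figure D5:**
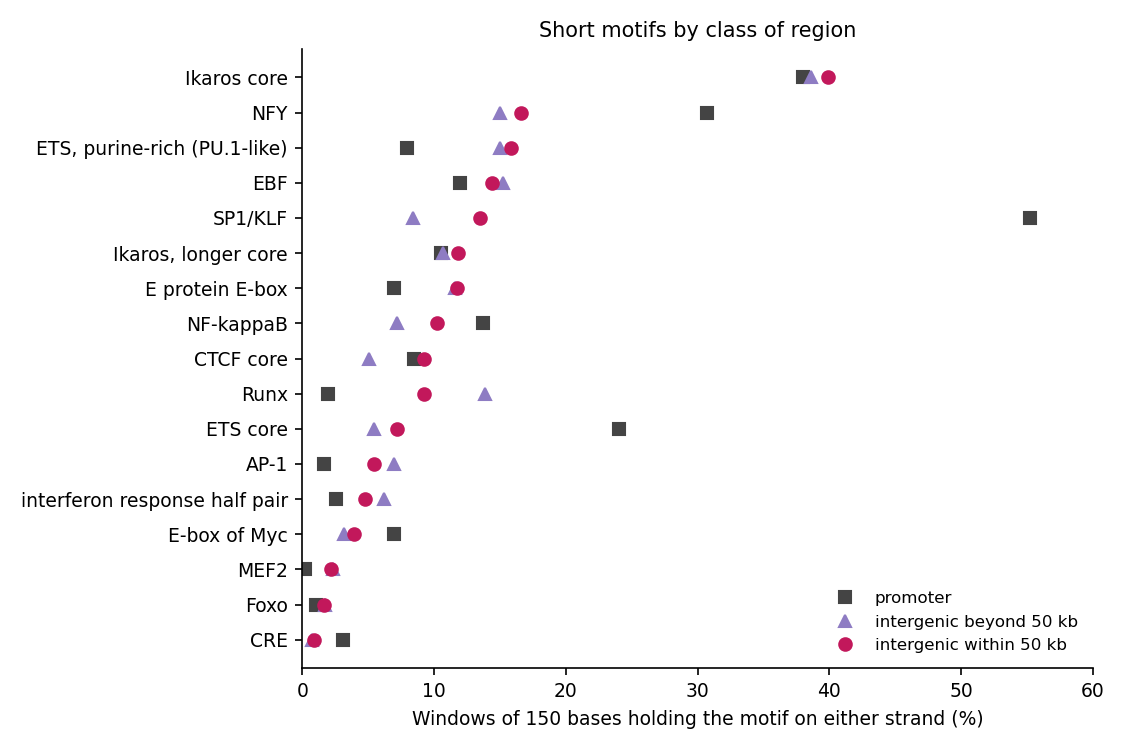
The share of 150-base windows (x axis, %) that hold each short motif (y axis) on either strand, for near-gene intergenic regions, promoters and regions beyond 50 kb. The GGGAA core stands at 39.9%, 38% and 38.6%, while the SP1 and KLF motif stands at 13.5%, 55.2% and 8.41%.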

How the data were processed

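Single-cell ATAC-seq of ERt2-Ikaros B3 cells was analysed at 0 and 24 hours, 2 C1 runs each. The labels list 48, 63, 75 and 73 single cells in these runs, and the matrix holds 48, 47, 60 and 72. The authors mapped reads to mm10 with Bowtie2, removed duplicates with Picard, called peaks on bulk replicates with HOMER, quantified each cell in them, and deposited whole-number counts without normalization. Versions, and the treatment of values above 2, are not given in the sources used here. Bulk samples were not analysed here. All columns were used, and runs shared 0 cell names. No doublet caller was run.

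Counts were summed per run, since cells of 1 run are not independent, and tested over 20103 regions with edgeR 4.0.16 (R 4.3.3), quasi-likelihood test, TMM factors, Benjamini-Hochberg adjustment, threshold 0.05. The matrix holds no region below 5 cells, so no further filter was used. Run summaries were compared with two-sided exact permutation tests (NumPy 2.4.6, SciPy 1.17.1). Thinning took the 10th percentile of counts per cell. Intervals and limits (3 counts of the total) are at 95% and cover counting error only. With BLAST 2.17.0, a copy in mm10 needed 90% identity over 80% of the region. A mitochondrial match needed an E-value of 1e-05, and a match to ribosomal RNA needed 80% identity over 80%. Ribosomal RNA was searched only in a stretch of chromosome 17 (39843013 to 39848827), so matches to other ribosomal sequence would be missed. Copies could not be counted for 19 very short regions.

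The regions, gene lists and tests were chosen with earlier results of these data known. Named regions were those called, up to 6 in each direction with the smallest unadjusted p among separated regions in at least 10% of cells, loci with the most regions (8, as 4 tied), the 8 most detected, and up to 4 per gene list by cells detected. Some regions that these rules name are not reported here. Alternatives were other scalings, DESeq2 1.42.0, a filter at 10% of cells, detected or not detected values, thinned cells, each run left out, a block on replicate number, and other definitions of the regions.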

Additional observations from a re-analysis of the deposited data

How the results depend on the processing

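Counts of calls moved with most choices, and the cause was not tested. From 0 regions called higher at 0 hours and 2 at 24 hours, edgeR gave 2 and 4 with run totals without TMM (0.0571% and 0.114%, beside 0.0597% and 0.104% of all regions). It gave 2 and 0 with cell numbers as offset (0.0571% and 0%, beside 0.0149% and 0%). Among regions found in 10% of cells or more it gave 3 and 2 (0.843% and 0.562%, beside 0.210% and 0.168%). The number tested is lower there, and those at 0 hours are Tmem196, Il12b and Elovl7. These 3 met the filter mostly through their 0-hour cells. At 24 hours the calls were 0 with RLE factors, DESeq2, values reduced to detected or not and thinned cells. In each of these fits all regions also gave 0. The calls at 24 hours were 1 at an adjusted p of 0.01 or with regions up to 20 kb only (2191 regions). The adjusted p of the Chst11 region ranged from 6.07e-05 to 0.697 and that of the Aldh9a1 region from 5e-06 to 0.697 over all fits, those with a run left out included. With each run left out in turn, calls ranged from 0 to 68 at 0 hours and from 0 to 49 at 24 hours, both highest without 24-hour run 1 (1.94% and 1.40%, where all regions gave 1.70% and 2.27%), where the lone 24-hour run is assumed to vary like the 0-hour runs. Runs with the same number were not paired (correlation of deviations -0.0109 across regions). A fit with the replicate number as a block gave 0 and 2 calls (0% and 0.0571%, beside 0.00995% and 0.0448% of all regions). Of the 3500 regions, 1118 separated with more signal at 0 hours and 484 at 24 hours. Among regions found in 10% of cells or more, fitted with scaling of their own, these were 127 and 49 (35.7% and 13.8%, beside 21.3% and 21.4% of all such regions). On the scale of the main fit the same 356 regions gave 103 (28.9%) and 79 (22.2%), near balance, with a median log2 change of -0.02. Up to 20 kb the counts were 668 and 308 (30.5% and 14.1%, beside 25.7% and 19.3%). Both sets hold fewer regions. With cell numbers as offset, which lowers the median log2 change over all regions from -0.06 to -0.51, 253 separated at 24 hours (7.23%, beside 8.94%). With a run left out they ranged from 1454 to 1739 (41.5% to 49.7%, beside 36.8% to 41.2%) and from 831 to 1040 (23.7% to 29.7%, beside 29.4% to 34.6%), since 1 run separates from 2 more easily. The share of signal, its ratios to promoters and to regions beyond 50 kb and the number detected per cell kept their direction under every alternative run, with ranges over runs left out of -3.98 to -1.82 points for the share, -0.876 to -0.421 for the log2 ratio to promoters, 0.166 to 0.264 for the ratio to regions beyond 50 kb and -33 to -7 regions per cell. The difference in mean detection from regions beyond 50 kb reversed to -0.031 with thinned cells. Among 28 single regions, 294 of 327 values kept their direction and side of the threshold. In 14 a call was lost and in 16 one was gained, whatever the size of the change, and 3 changed sign. These 3 were Socs3 (-0.97) and Hes1 (-0.18) with thinned cells and Ccne1 (-0.09) with cell numbers as offset. With 47 to 72 cells per run, a region absent from a run could still be found in up to 4.17% to 6.38% of cells, and 2 runs against 2 cannot give an exact permutation p below 0.333.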

Other observations

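Of the 3500 regions, 136 (3.89%) were found in no 24-hour cell and 30 (0.857%) in no 0-hour cell. Over all 20103 regions these were 483 (2.40%) and 129 (0.642%), so all regions leaned the same way. A count of 0 of 132 24-hour cells allows a share of up to 2.27%, and 0 of 95 0-hour cells one of up to 3.16%. The region over Ighv1-85, a heavy chain variable segment, was found in 6.25% and 12.8% of 0-hour cells against 0% and 2.78% at 24 hours, with 2 copies in mm10.

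Median log2 changes by the letters a window holds are given as a description, with no test. Regions with the CTCF letters had a median of 0.09 (322 regions, median window GC 54.7%) and those without them -0.45. For the Myc E-box the medians were 0.19 (137 regions, window GC 56.7%) and -0.41, for the NFY motif -0.13 and -0.45, and for the E protein E-box -0.22 and -0.41. Regions with the Runx motif had a median of -0.87 (322 regions, window GC 51.3%) and those without it -0.35. For the EBF motif the medians were -0.75 (503 regions, window GC 55.3%) and -0.33, and for the GAGGAAG motif -0.70 and -0.34. Regions with the GGGAA core had a median of -0.52 (1395 regions) and those without it -0.31. With the SP1 and KLF motif the median was -0.01 and the window GC 61.3%, against -0.46 and 52.7% without it. For other motifs the medians with and without the letters lay closer, at -0.34 and -0.40 for Foxo, -0.32 and -0.40 for NF-kappaB, -0.55 and -0.39 for MEF2 and -0.24 and -0.40 for the ETS core. For the AP-1 motif they were -0.63 and -0.38, for TGGGAA -0.63 and -0.37, for the interferon response motif -0.67 and -0.39 and for the CRE motif, in 31 regions, 0.02 and -0.40. The window GC of the regions with the CTCF, Runx and EBF letters lay within 4 points of each other, and the part of base composition in these differences was not tested.

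A group picked after its values were seen is that of the 8 regions overlapping an annotated miRNA gene. In 5 of the 8 the runs separated with more signal at 24 hours, in 0 with more at 0 hours, where all regions gave 19.3% and 25.7%. Their median log2 change was 2.13. Their share of all signal was 0.0243%, 0.0184%, 0.0644% and 0.149% in the 4 runs, highest in 24-hour run 2, and their median GC content was 64.6%. Matches of these 8 regions to ribosomal RNA outside the chromosome 17 stretch were not searched for.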
